A study of Arabidopsis thaliana with 30 samples.

Results

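A set of 10 genes of the morning arm of the plant circadian clock was followed through a drought in shoots of Arabidopsis thaliana Col-0: CCA1 (AT2G46830), LHY (AT1G01060), RVE1 (AT5G17300), RVE2 (AT5G37260), RVE4 (AT5G02840), RVE6 (AT5G52660), RVE8 (AT3G09600), LNK1 (AT5G64170), LNK2 (AT3G54500) and PRR9 (AT2G46790). They were taken by name, with earlier results of these data known, and are 10 of the 27417 genes in the count table. All 10 passed the filter on low counts that left 19249 genes. The seedlings were grown on MS medium, moved to ceramic granular soil in pots under long days, and pretreated for 3 days with water or with 10 mM ethanol given from the tray. Watering then stopped. The labels give the harvest of the shoots in days after drought onset (DAD), starting from 0 DAD at the end of the pretreatment and then at 1, 3, 5 or 7 DAD. The 10 groups hold 3 libraries each, 30 in all, and every group shares the genotype and the growth conditions. No watered library at 1 DAD or later was analysed here, so the course of the drought, plant age and the time of harvest cannot be told apart. The hour of harvest is not given in the sources used here, and the study's methods call the replicates biological without stating how plants and pots were divided among them. P-values therefore measure the spread between these libraries.

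The plant clock is a set of transcription factors that repress or activate each other in turn over the day. CCA1 and LHY are MYB-like factors that peak around dawn and repress evening genes such as TOC1. RVE4, RVE6 and RVE8 belong to the same MYB-like family and act as activators, with LNK1 and LNK2 as their coactivators. PRR9 is a daytime repressor of CCA1 and LHY, and RVE1 and RVE2 are further MYB-like members of the family, RVE1 with a link from the clock to auxin.

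The promoters are shown for the genes whose upstream sequence held a G-box, CACGTG, a motif bound by bZIP and bHLH factors. Each is the 250 bases before the gene's annotated start in the RefSeq annotation of assembly TAIR10.1, written 5′ to 3′ on the gene's strand. Capitals mark matches to the G-box and to the CCA1-binding site AAAAATCT. The windows are CCA1 at chr2:19245341-19245590 on the plus strand, LHY at chr1:37872-38121 on the minus strand, RVE1 at chr5:5692993-5693242 on the minus strand, RVE2 at chr5:14753089-14753338 on the minus strand and PRR9 at chr2:19232357-19232606 on the plus strand.
CCA1: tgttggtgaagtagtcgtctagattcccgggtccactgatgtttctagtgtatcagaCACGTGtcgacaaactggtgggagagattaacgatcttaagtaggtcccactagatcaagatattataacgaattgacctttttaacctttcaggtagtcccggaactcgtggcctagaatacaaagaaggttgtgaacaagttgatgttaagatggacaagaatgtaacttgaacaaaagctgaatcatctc
LHY: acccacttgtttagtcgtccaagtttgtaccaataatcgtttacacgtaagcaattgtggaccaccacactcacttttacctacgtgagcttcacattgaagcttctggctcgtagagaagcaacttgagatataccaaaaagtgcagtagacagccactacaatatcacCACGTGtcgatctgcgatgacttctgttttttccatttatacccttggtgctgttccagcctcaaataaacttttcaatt
RVE1: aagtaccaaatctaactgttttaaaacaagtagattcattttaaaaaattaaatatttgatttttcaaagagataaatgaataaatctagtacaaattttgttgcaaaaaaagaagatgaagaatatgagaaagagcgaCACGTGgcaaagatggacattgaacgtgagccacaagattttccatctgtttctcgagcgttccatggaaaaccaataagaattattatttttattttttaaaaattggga
RVE2: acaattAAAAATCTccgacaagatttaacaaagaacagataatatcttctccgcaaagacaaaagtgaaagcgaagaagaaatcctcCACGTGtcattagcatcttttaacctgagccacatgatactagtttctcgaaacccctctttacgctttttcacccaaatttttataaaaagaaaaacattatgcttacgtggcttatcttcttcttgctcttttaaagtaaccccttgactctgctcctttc
PRR9: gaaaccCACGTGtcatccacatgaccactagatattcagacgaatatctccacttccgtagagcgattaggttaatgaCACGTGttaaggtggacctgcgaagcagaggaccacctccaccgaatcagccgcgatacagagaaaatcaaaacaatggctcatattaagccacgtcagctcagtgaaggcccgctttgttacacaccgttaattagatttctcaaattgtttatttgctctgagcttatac

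The G-box lay 193 bases before the start of CCA1 (position -193), at -80 in LHY, at -111 in RVE1, at -163 in RVE2, and at -244 and -172 in PRR9. It was thus present in 5 of the 10 members and in 6.49% of the 27443 windows of the same length over the annotated protein-coding genes, called all windows below. The 2 forms of the core of the ABA response element, ACGTGGC and ACGTGTC, share the letters ACGTG with it. Searched on both strands, either form was found in 7 of the 10 members and in 6.39% of all windows, and all 6 G-box matches in the members overlapped one of them. The evening element AAAATATCT, to which CCA1, LHY and RVE8 bind, was in none of the 10 windows and in 2.36% of all windows. AAAAATCT was found in RVE2 and RVE6 and in 6.69% of all windows. The letters GATACG, read by LUX, were in 2 members (4.59% of all windows), GATTCG in 1 (7.88%), and CACATG in 3 (11.1%). These matches describe the letters of the windows and were not tested for binding.

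Library totals ran from 3625884 to 14735127 counts. Levels are given as CPM, the library-size-scaled count, after TMM scaling and with the SD over 3 libraries. The summed level of 5 photosynthetic shoot markers was between 34620 and 53040 CPM at 0, 1 and 3 DAD and between 24340 and 32840 CPM at 5 DAD. It was 21520 to 25840 CPM in ethanol 7 DAD and 3433 to 5374 CPM in water 7 DAD, with no marker at 0. The 6 root markers summed to at most 6.84 CPM in any library. The 5 anther and pollen markers summed to between 2.06 and 6.56 CPM at 0 DAD, to between 144 and 159 CPM in water 7 DAD and to between 221 and 245 CPM in ethanol 7 DAD, so the later shoots held some floral transcript. The part of these shifts in the results below was not tested. In such bulk tissue, fewer cells of a type and less RNA per cell cannot be told apart.

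Most of the 10 morning genes were at their highest in plants pretreated with water at 7 DAD, the last day of this series. In 9 of the 10, water 7 DAD had the highest mean of the 10 groups, and in 7 of these its 3 libraries did not overlap those of the next group. Of all 19249 genes, 34.8% had their highest mean in this group and 20.6% did so without overlap with the next. PRR9 was the exception, with its highest mean in ethanol 7 DAD. Ethanol 7 DAD came next after it in 6 members. The ratio of the highest to the lowest group mean was 44.2 for RVE2, 13.4 for RVE8, 11.0 for CCA1, 9.34 for LHY, 8.74 for RVE1, 7.30 for RVE6, 5.54 for PRR9, 4.48 for LNK1, 3.37 for RVE4 and 3.30 for LNK2. Per kilobase of gene, the mean level over all libraries was highest for LNK1 (31.2 CPM per kb) and RVE4 (30.7 CPM per kb) and lowest for PRR9 (1.06 CPM per kb). The length was that of the whole annotated gene, introns included, and whether counts in these libraries scale with it was not tested. Without division by length, LNK1 (136 CPM) and RVE4 (102 CPM) were also highest and PRR9 (2.73 CPM) lowest.

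**Figure D1:**
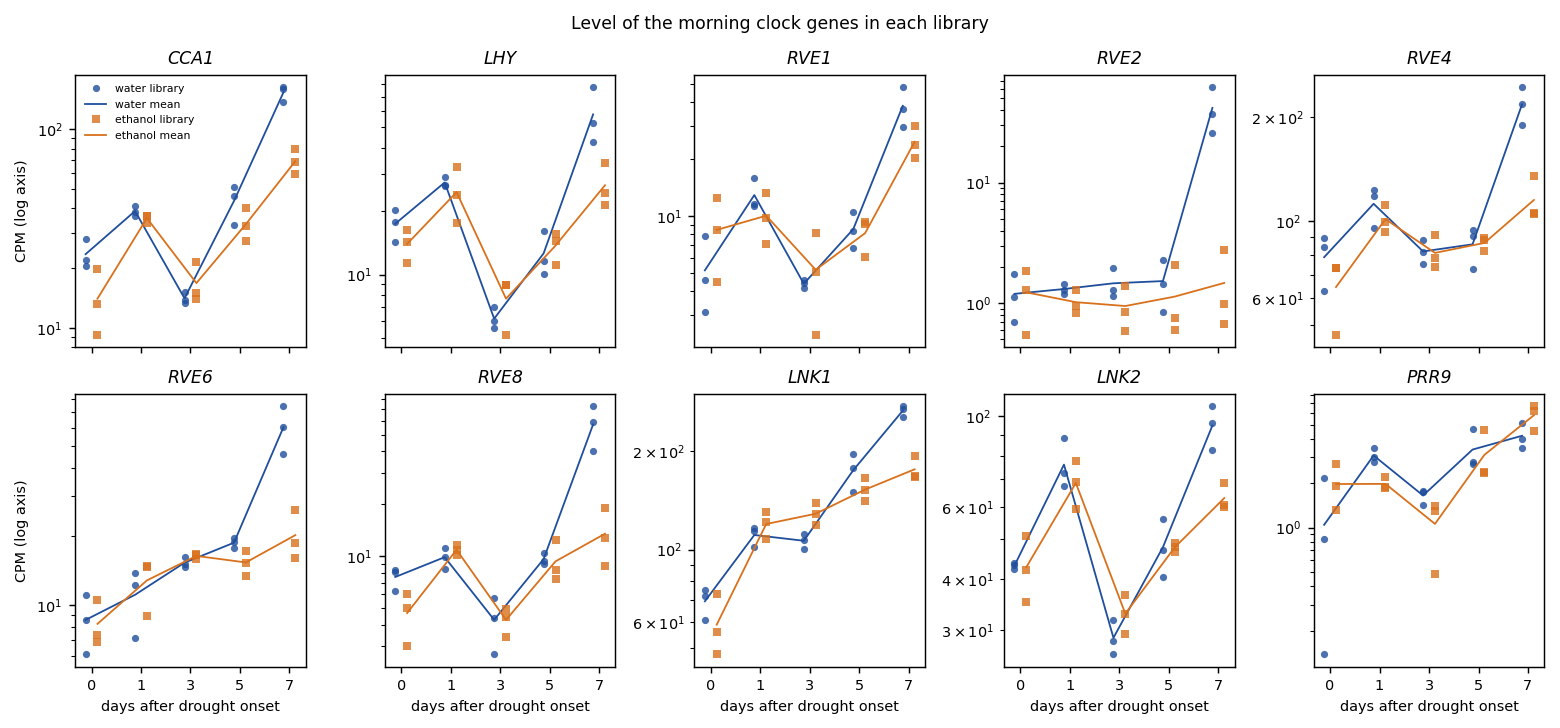
CPM of each morning gene in each of the 30 libraries (log axis, 1 panel per gene) against days after drought onset, with lines through the group means of the water and ethanol arms. Up to 5 DAD the arms overlap in most panels, and CCA1 at 0 DAD is the only called difference between them. The arms also lie apart, without a call, for RVE8 at 0 DAD, PRR9 at 1 and 3 DAD, LNK1 at 3 DAD and RVE6 at 5 DAD. At 7 DAD the water libraries stand above the ethanol libraries in 8 of the 10 panels. The exceptions are RVE1 and PRR9, whose libraries overlap.

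CCA1 and LHY, the core dawn repressors, moved up, down and up again in the water arm. There, CCA1 was at 23.5 ± 3.99 CPM at 0 DAD, 38.7 ± 2.39 at 1 DAD, 14.1 ± 0.896 at 3 DAD, 43.5 ± 9.37 at 5 DAD and 154 ± 14.2 at 7 DAD. In the ethanol arm it was at 14.0 ± 5.28, 35.7 ± 1.63, 16.8 ± 4.03, 33.3 ± 6.41 and 69.1 ± 9.86 CPM on the same days. Water 7 DAD stood above all other groups, ethanol 7 DAD was next without overlap with the group below it, and below these each group overlapped its neighbour in the order. LHY in the water arm was at 17.4 ± 2.97, 27.4 ± 1.44, 6.17 ± 0.732, 12.6 ± 3.18 and 57.6 ± 18.1 CPM. In the ethanol arm LHY was at 14.0 ± 2.50, 24.6 ± 7.43, 7.68 ± 2.16, 13.7 ± 2.28 and 26.6 ± 6.58 CPM. The LHY order had 2 breaks without overlap, below water 7 DAD and between water 5 DAD and ethanol 3 DAD. Where CCA1 at 5 DAD was above its water 0 DAD level (log2 fold change 0.89, SE 0.194, adjusted p = 0.000788), LHY was not (-0.46, SE 0.247, adjusted p = 0.181), although without water 5 DAD replicate 3 the LHY value became -0.68 and was called (adjusted p = 0.0668).

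RVE8, RVE4 and RVE6, the activators, were all at their highest in water 7 DAD. RVE8 in the water arm was at 7.54 ± 1.11 CPM at 0 DAD, 9.81 ± 1.36 at 1 DAD, 4.27 ± 1.52 at 3 DAD, 9.57 ± 0.711 at 5 DAD and 57.3 ± 16.3 at 7 DAD. In the ethanol arm it was at 4.67 ± 1.52, 10.8 ± 0.697, 4.26 ± 0.798, 9.28 ± 2.63 and 13.4 ± 5.13 CPM. At 3 DAD RVE8 was below its means at 1 and 5 DAD in both arms, as CCA1 was. In ethanol its 3 DAD libraries overlapped those of 0 DAD (-0.18, SE 0.324, adjusted p = 0.764). The water 7 DAD libraries of RVE8 lay above those of every other group. RVE4 was the most abundant of the 3 per kilobase and changed least, from 78.6 ± 14.1, 112 ± 14.5, 81.7 ± 6.33 and 85.7 ± 11.6 CPM at 0, 1, 3 and 5 DAD to 217 ± 27.0 CPM at 7 DAD in the water arm. Its ethanol arm was at 64.5 ± 15.1, 101 ± 9.42, 80.9 ± 8.90, 86.5 ± 3.84 and 115 ± 17.0 CPM. RVE6 showed no dip at 3 DAD. Its water arm went through 8.60 ± 2.51, 11.1 ± 3.52, 15.3 ± 0.823, 18.8 ± 0.957 and 60.3 ± 14.1 CPM, and its ethanol arm through 8.26 ± 1.996, 12.8 ± 3.33, 16.4 ± 0.413, 15.4 ± 1.94 and 20.3 ± 5.18 CPM.

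LNK1 and LNK2, the coactivators, were at their highest in water 7 DAD but had different values at 3 DAD. LNK1 in the water arm was at 69.6 ± 7.51 CPM at 0 DAD, 111 ± 7.94 at 1 DAD, 106 ± 5.35 at 3 DAD, 175 ± 23.3 at 5 DAD and 265 ± 9.85 at 7 DAD. In the ethanol arm it was at 59.1 ± 12.9, 120 ± 11.0, 129 ± 9.99, 152 ± 12.5 and 176 ± 15.2 CPM. LNK2 had the dip at 3 DAD that LNK1 lacked. Its water arm was at 43.1 ± 0.728, 76.0 ± 10.9, 28.7 ± 2.82, 47.8 ± 7.80 and 94.7 ± 11.5 CPM, and its ethanol arm at 42.7 ± 7.96, 68.6 ± 9.07, 32.9 ± 3.55, 47.8 ± 1.30 and 63.0 ± 4.76 CPM. The highest LNK2 group, water 7 DAD, overlapped water 1 DAD, and both 1 DAD groups had higher means than ethanol 7 DAD.

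PRR9, the repressor, was the lowest member and its values rest on few counts, between 1 and 77 in a library. Its water arm was at 1.04 ± 1.03 CPM at 0 DAD, 3.08 ± 0.354 at 1 DAD, 1.65 ± 0.198 at 3 DAD, 3.39 ± 1.10 at 5 DAD and 4.20 ± 0.846 at 7 DAD. Its ethanol arm was at 1.98 ± 0.690, 1.98 ± 0.196, 1.06 ± 0.501, 3.12 ± 1.31 and 5.79 ± 1.10 CPM. From ethanol 7 DAD down to water 1 DAD, the 5 highest groups overlapped each with the next.

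RVE1 and RVE2, the remaining MYB-like members, had unlike levels over the course. RVE1 in the water arm was at 5.16 ± 2.41 CPM at 0 DAD, 12.9 ± 2.53 at 1 DAD, 4.38 ± 0.224 at 3 DAD, 8.52 ± 1.86 at 5 DAD and 38.3 ± 9.36 at 7 DAD. In the ethanol arm it was at 8.44 ± 3.97, 10.0 ± 3.06, 5.19 ± 2.89, 8.12 ± 1.78 and 24.7 ± 4.86 CPM. Both arms thus ended with RVE1 well above its earlier levels. RVE2 was near the lower limit of these libraries in every group but 1. Its means ran from 0.945 ± 0.413 CPM in ethanol 3 DAD to 1.52 ± 0.723 CPM in water 5 DAD over 9 groups that each overlapped the next, with 2 to 32 counts in a library. In water 7 DAD it was at 41.7 ± 18.7 CPM.

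Ethanol against water at 7 DAD compares the shoots of the arms late in the drought. The hour of harvest of each arm is not given. On this and every other day, an unequal hour could not be told apart from the pretreatment. In all, 9 of the 10 members were lower in ethanol and none was higher, where 60.5% of all 19249 genes were called in either direction and 28.6% were called lower. The median log2 fold change of the members was -1.01, against 0.05 over all genes tested. Genes are called where the adjusted p of the edgeR quasi-likelihood test is under 0.1. This threshold is that of the study, which applied it in DESeq2.

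RVE2 had the lowest ratio of the members. Its 3 water libraries were at 26.0, 62.4 and 36.8 CPM and its 3 ethanol libraries at 0.975, 0.673 and 2.76 CPM, so the groups lay far apart although both spread. The log2 fold change of RVE2 was -4.77 (SE 0.489, adjusted p = 2.10e-09), a level 27.3-fold lower in ethanol, and -5.61 without ethanol 7 DAD replicate 3. RVE8 was at 40.2, 72.7 and 58.9 CPM in water and at 8.67, 18.9 and 12.7 CPM in ethanol, again without overlap. The log2 fold change of RVE8 was -2.10 (SE 0.264, adjusted p = 9.30e-08). RVE6 was at 46.1, 74.3 and 60.5 CPM in water and at 16.0, 26.0 and 18.7 CPM in ethanol, and its log2 fold change was -1.57 (SE 0.230, adjusted p = 1.22e-06). In all 3 genes the highest water library was replicate 2.

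CCA1 was at 137, 164 and 160 CPM in the water 7 DAD libraries and at 68.3, 79.3 and 59.7 CPM in the ethanol ones. Every water library was above every ethanol library, and the log2 fold change was -1.15 (SE 0.188, adjusted p = 6.03e-06), or 2.22-fold lower. LHY was at 42.8, 77.8 and 52.2 CPM in water and at 24.3, 21.4 and 34.0 CPM in ethanol, and its log2 fold change was -1.11 (SE 0.236, adjusted p = 0.000207). The paired dawn repressors were thus lower by nearly the same ratio. RVE4 was at 190, 218 and 244 CPM against 105, 135 and 106 CPM (log2 fold change -0.92, SE 0.157, adjusted p = 1.27e-05).

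The coactivators had the smallest called changes. LNK1 was at 268, 273 and 254 CPM in water and at 166, 193 and 167 CPM in ethanol, without overlap, and its log2 fold change was -0.59 (SE 0.128, adjusted p = 0.000241). LNK2 was at 82.5, 96.2 and 106 CPM in water and at 59.8, 60.7 and 68.5 CPM in ethanol, and its log2 fold change was -0.59 (SE 0.143, adjusted p = 0.000919). Both coactivators were thus lower by the same log2 value.

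RVE1 and PRR9 were the members whose arms overlapped. RVE1 was at 29.6, 37.0 and 48.2 CPM in water and at 20.4, 29.96 and 23.8 CPM in ethanol, where the highest ethanol library lay just above the lowest water library. Its log2 fold change of -0.63 (SE 0.320, adjusted p = 0.0958) had a 95% interval from -1.29 to 0.02. The call was lost without water 7 DAD replicate 2 (-0.64), water 7 DAD replicate 3 (-0.43), ethanol 7 DAD replicate 1 (-0.49) or ethanol 7 DAD replicate 3 (-0.59), and with library totals (-0.42), without the filter (-0.61) and in DESeq2 (-0.65), with adjusted p-values from 0.101 to 0.336. PRR9 was at 3.48, 3.99 and 5.13 CPM in water and at 4.55, 6.17 and 6.64 CPM in ethanol. Its log2 fold change of 0.46 (SE 0.459, adjusted p = 0.412) had a 95% interval from -0.48 to 1.40, which leaves room for a change in either direction.

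**Figure D2:**
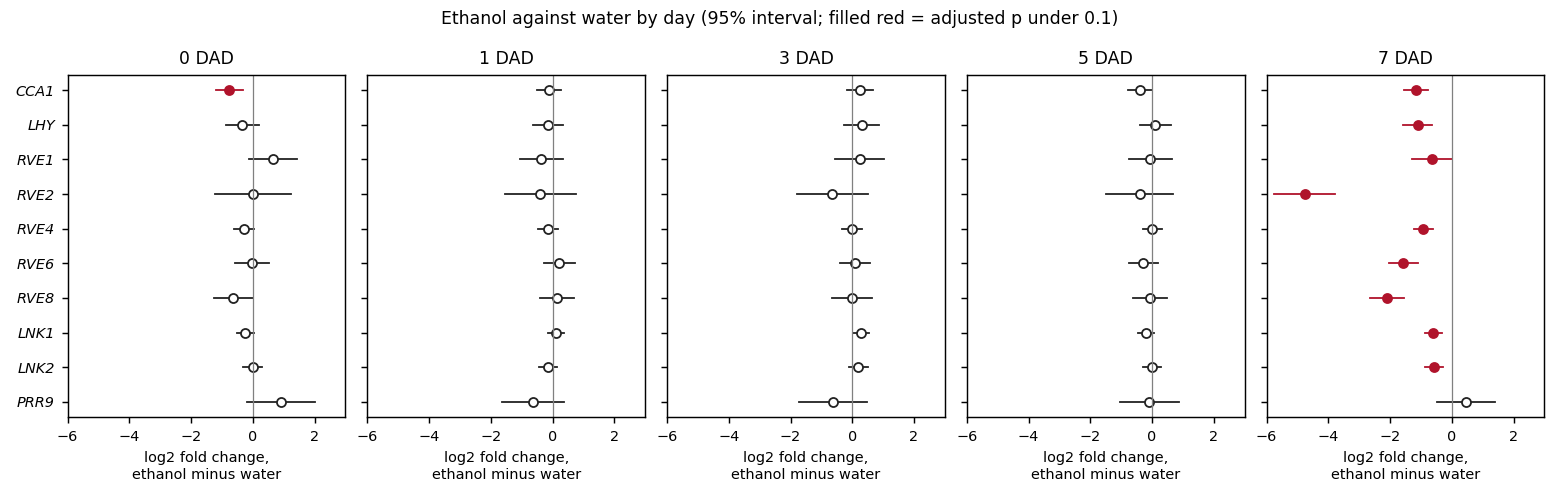
Log2 fold change of ethanol against water for each morning gene at each day, with its 95% interval, filled red where the adjusted p was under 0.1. The red points are CCA1 at 0 DAD and 9 of the 10 genes at 7 DAD, with RVE2 farthest to the left at -4.77.

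Before 7 DAD few differences between the arms were called in these genes. At 0 DAD, right after the pretreatment, 1 member was called, where 1.71% of all genes were called and 0.951% were called lower. CCA1 was at 28.0, 22.0 and 20.4 CPM in water and at 19.7, 9.23 and 13.1 CPM in ethanol, with the ethanol libraries all below the water ones. Its log2 fold change was -0.76 (SE 0.212, adjusted p = 0.0854). The call was lost without water 0 DAD replicate 1 (-0.61) or replicate 2 (-0.80), without ethanol 0 DAD replicate 2 (-0.56) or replicate 3 (-0.71), with library totals (-0.75) and in a fit of these 2 groups alone (-0.74), with adjusted p-values from 0.124 to 0.378. RVE8 had a value of similar size that was not called (-0.63, SE 0.308, adjusted p = 0.397). Of the 10 members 3 had a positive value. Among these, PRR9 (0.92, SE 0.541, adjusted p = 0.505) and RVE1 (0.65, SE 0.382, adjusted p = 0.506) were not called either.

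At 1, 3 and 5 DAD no member was called, against 0, 0.992 and 0% of all genes. At an unadjusted p under 0.05 the counts of members were 0, 1 and 0, and DESeq2 also called 0 on each of the 3 days. The log2 fold changes of the 10 members lay between -0.64 and 0.22 at 1 DAD, between -0.65 and 0.31 at 3 DAD and between -0.41 and 0.11 at 5 DAD. The member with the unadjusted p under 0.05 was LNK1 at 3 DAD, at 111, 101 and 107 CPM in water and 119, 128 and 139 CPM in ethanol (log2 fold change 0.27, SE 0.129, adjusted p = 0.629). CCA1 at 5 DAD was at 46.3, 51.2 and 33.1 CPM in water and 40.1, 32.4 and 27.3 CPM in ethanol (-0.38, SE 0.191, adjusted p = 1), with overlapping arms.

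The course within the water arm showed when the members moved during the drought. At 1 DAD, 7 members were higher than at 0 DAD and none was lower, where 12.9% of all genes were called and 5.81% were called higher. They were LNK2 (0.82), CCA1 (0.72), LNK1 (0.67), LHY (0.65), RVE4 (0.51), RVE1 (1.34) and PRR9 (1.51), as log2 fold changes. CCA1 was at 41.3, 36.6 and 38.3 CPM at 1 DAD, above all 3 libraries of 0 DAD. Of the 7 calls, 4 depended on single libraries. Without water 0 DAD replicate 1, LHY (0.67), RVE1 (1.05), RVE4 (0.37) and PRR9 (1.35) were no longer called, which left 3 members. LHY was also not called with library totals (0.62), without water 0 DAD replicate 3 (0.53), water 1 DAD replicate 1 (0.67), replicate 2 (0.61) or replicate 3 (0.68), RVE4 without water 1 DAD replicate 2 (0.48) or replicate 3 (0.44), and PRR9 without water 0 DAD replicate 2 (1.06), which held 1 count, or water 1 DAD replicate 2 (1.53) or replicate 3 (1.41), or in the compared groups alone (1.53). Without water 0 DAD replicate 3 the PRR9 value became 2.50.

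At 3 DAD the members divided. LHY (-1.49, SE 0.265, adjusted p = 0.000193), CCA1 (-0.74), RVE8 (-0.80) and LNK2 (-0.59) fell, and RVE6 (0.82) and LNK1 (0.61) rose, where 19.6% of all genes were called, 10.4% lower and 9.25% higher. LHY was at 5.55, 6.98 and 5.99 CPM at 3 DAD and at 17.8, 20.2 and 14.3 CPM at 0 DAD, far from overlap. RVE8 was not called without water 0 DAD replicate 2 (-0.76) or replicate 3 (-0.72) or water 3 DAD replicate 1 (-0.57) or replicate 2 (-0.82), or in the compared groups alone (-0.80), and RVE6 was not called without water 0 DAD replicate 2 (0.64). At 5 DAD, CCA1 (0.89), RVE6 (1.11), LNK1 (1.33) and PRR9 (1.64) were higher than at 0 DAD and none was lower, where 33% of all genes were called and 16.2% were called higher. Without water 0 DAD replicate 3 the PRR9 value became 2.63, and without replicate 2, with its single count, 1.19.

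At 7 DAD all 10 members were higher in the water arm than at 0 DAD, where 70% of all genes were called and 34.5% were called higher. The median log2 fold change of the members was 2.33, against -0.01 over all genes tested. The values were 5.06 for RVE2, 2.93 for RVE8, 2.90 for RVE1, 2.80 for RVE6, 2.71 for CCA1, 1.96 for PRR9, 1.93 for LNK1, 1.73 for LHY, 1.47 for RVE4 and 1.14 for LNK2. RVE2 was at 1.75, 0.692 and 1.13 CPM at 0 DAD, on 21, 5 and 11 counts, and at 26.0, 62.4 and 36.8 CPM at 7 DAD, on 217, 391 and 323 counts. Leaving out any 1 of the 6 libraries left all 10 called, with PRR9 between 1.5 without water 0 DAD replicate 2 and 2.94 without replicate 3. In the last step, from 5 to 7 DAD, 9 members rose (64.5% of all genes called, 31.8% higher), by 0.60 for LNK1 up to 4.77 for RVE2 on the log2 scale, and PRR9 had a value of 0.31 (SE 0.466, adjusted p = 0.585).

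The same steps were taken in the ethanol arm. At 1 DAD, 6 members were higher than at 0 DAD (18.3% of all genes called, 9.35% higher), among them CCA1 by 1.36 on the log2 scale (SE 0.211, adjusted p = 3.94e-05) and RVE8 by 1.16. LHY at 1 DAD (0.84) was not called without ethanol 0 DAD replicate 3 (0.69) or ethanol 1 DAD replicate 2 (0.59). At 3 DAD, RVE6 (0.95) and LNK1 (1.13) were higher and LHY (-0.84) and LNK2 (-0.39) lower, where 24.6% of all genes were called. LHY then lost its call without ethanol 0 DAD replicate 2 (-0.72) or ethanol 3 DAD replicate 1 (-0.63), and LNK2 lost its call without ethanol 0 DAD replicate 1 (-0.40) or replicate 3 (-0.23) or ethanol 3 DAD replicate 1 (-0.39) or replicate 3 (-0.31). LNK2 was also not called with library totals (-0.34), without the filter (-0.39) or in the compared groups alone (-0.39). CCA1 at 3 DAD was at 14.96, 13.98 and 21.4 CPM, overlapping its ethanol 0 DAD libraries (0.27, SE 0.216, adjusted p = 0.437). At 5 DAD, CCA1 (1.26), RVE4 (0.42), RVE6 (0.86), RVE8 (0.91) and LNK1 (1.37) were higher and none was lower (33.3% of all genes called, 16.8% higher). RVE4 and RVE8 were not called without ethanol 0 DAD replicate 1 (0.24 and 0.71). RVE4 was also not called without ethanol 5 DAD replicate 1 (0.41) or replicate 3 (0.40), and RVE8 without ethanol 5 DAD replicate 2 (0.68).

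At 7 DAD, 9 members were higher in the ethanol arm than at 0 DAD, where 41.5% of all genes were called and 22% were called higher. Their median log2 fold change over all 10 members was 1.36, against 0.02 over all genes tested. CCA1 had the highest value, 2.31 (SE 0.211, adjusted p = 1.07e-09), followed by RVE1 with 1.61, LNK1 with 1.58, PRR9 with 1.49, RVE8 with 1.46, RVE6 with 1.25, LHY with 0.95, RVE4 with 0.83 and LNK2 with 0.55. RVE2 was not called, at 0.28 (SE 0.574, adjusted p = 0.755), and its value was -0.59 when ethanol 7 DAD replicate 3, which held 32 counts, was left out. From 5 to 7 DAD, CCA1 (1.05), LHY (0.97) and RVE1 (1.59) rose in this arm, where 8.5% of all genes were called and 5.34% were called higher. The values of the other members lay between 0.20 and 0.87.

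Whether the late change differed between the arms was tested directly, as the difference of the changes from 0 to 7 DAD. It was called for 7 members, all with the smaller change in ethanol, where 50.8% of all genes were called and 23.2% were called lower. The value also takes in the difference between the arms at 0 DAD. That ran from -0.76 for CCA1 to 0.92 for PRR9 and was 0.65 for RVE1. With library totals 5 members were called, since LHY (-0.56, adjusted p = 0.210) and LNK2 (-0.38, adjusted p = 0.147) were not. RVE2 differed by -4.78 (SE 0.776, adjusted p = 1.01e-05), RVE6 by -1.55 (SE 0.350, adjusted p = 0.000619), RVE8 by -1.47 (SE 0.405, adjusted p = 0.00391) and RVE1 by -1.28 (SE 0.499, adjusted p = 0.0370) on the log2 scale. RVE1 was not called without water 0 DAD replicate 1 (-0.99), water 7 DAD replicate 3 (-1.08) or ethanol 0 DAD replicate 2 (-0.89). RVE2 was at -5.62 without ethanol 7 DAD replicate 3. For CCA1 the difference was -0.39 (SE 0.283, adjusted p = 0.272, 95% interval -0.97 to 0.18), for LNK1 it was -0.35 (SE 0.184, adjusted p = 0.121) and for PRR9 -0.46 (SE 0.701, adjusted p = 0.627). CCA1 ran from -0.59 to -0.09 with a library left out and was called without ethanol 0 DAD replicate 2 (-0.59, adjusted p = 0.0902). LNK1 was called in DESeq2 (-0.38, adjusted p = 0.0812), with DESeq2 size factors in edgeR (-0.38, adjusted p = 0.0950), and without water 0 DAD replicate 2 (-0.41), ethanol 0 DAD replicate 2 (-0.48, adjusted p = 0.0386) or ethanol 7 DAD replicate 2 (-0.40). The difference of the changes from 5 to 7 DAD was called for 8 members, all lower in ethanol, where 47.1% of all genes were called and 21.3% were called lower. For CCA1 it was -0.77 (SE 0.266, adjusted p = 0.0213), a call that was lost without ethanol 5 DAD replicate 1 (-0.59) and with library totals (-0.58, adjusted p = 0.102). With library totals 5 members were called, since LNK1 (-0.20) and LNK2 (-0.38) were also not called. This difference, the water course and ethanol against water at 7 DAD share the same water 7 DAD libraries and are not independent.

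**Figure D3:**
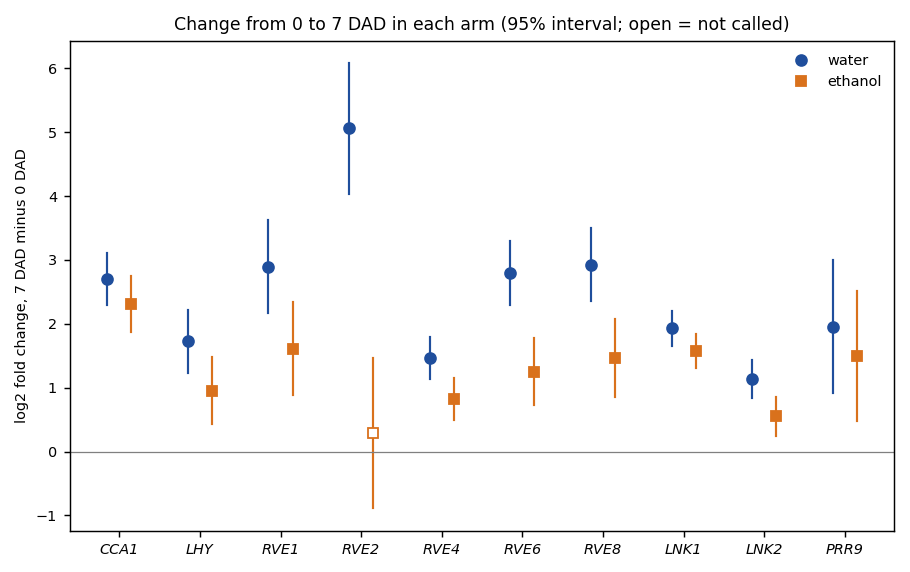
Log2 fold change from 0 to 7 DAD of each morning gene in the water arm (circles) and the ethanol arm (squares), with 95% intervals, open where the adjusted p was 0.1 or above. The water value lies above the ethanol value for all 10 genes, and RVE2 has the widest gap, 5.06 in water against 0.28 in ethanol.

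The rest of the clock was read from a list of 22 other clock genes, all of which passed the filter. At 7 DAD, 15 of the 22 were lower in ethanol than in water and 3 were higher, with a median log2 fold change of -0.97, where 28.6% of all genes were called lower and 32% higher. Among the evening genes, PRR5 (-1.80), ELF4 (-1.46), LUX (-0.97) and TOC1 (-0.96) were lower. PRR7, a daytime repressor, and GI had values of -0.10 and -0.11 and were not called. The 3 higher genes, named after their values were seen, were CHE (2.76), GRP8 (1.62) and GRP7 (1.15), of which CHE is a TCP factor that represses CCA1 and the GRPs are RNA-binding clock outputs. At 0 DAD, where CCA1 was called lower in ethanol, 6 of the 22 were higher and none lower, against 0.764% of all genes called higher and 0.951% called lower. Among them were LUX (1.11, adjusted p = 0.0100) and PRR5 (1.02, adjusted p = 0.0188). The CCA1 call was lost in several alternative fits, and the calls of the 22 genes were read from the main fit only. In the water arm, 13 of the 22 were higher at 3 DAD than at 0 DAD and 1 was lower, against 9.25% and 10.4% of all genes, on the day when CCA1 and LHY were low. At 1 DAD, when those 2 genes were high, 3 were higher and 7 lower, against 5.81% and 7.07% of all genes.

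The mean log2 CPM of CCA1 and LHY was set against that of 5 evening genes, PRR5, TOC1, GI, ELF4 and LUX, in each library. In water the dawn mean was 4.12 to 4.50 at 0 DAD, 5.00 to 5.06 at 1 DAD, 3.20 to 3.33 at 3 DAD and 4.45 to 4.62 at 5 DAD, while the evening mean was 3.89 to 4.12, 2.72 to 3.40, 5.63 to 5.89 and 4.27 to 4.51. The means thus moved in opposite directions from day to day up to 5 DAD. In ethanol the dawn mean was 4.68 to 5.12 at 1 DAD, 3.18 to 3.82 at 3 DAD and 4.33 to 4.50 at 5 DAD, and the evening mean 3.09 to 3.41, 5.93 to 6.06 and 4.20 to 4.78. At 0 DAD the ethanol libraries, with a dawn mean of 3.64 to 4.08 and an evening mean of 4.44 to 4.72, lay on the evening side of the water libraries without overlap in either mean. From 5 to 7 DAD the dawn mean went up in both arms. The evening mean went down in ethanol, and in water its 7 DAD libraries overlapped those of 5 DAD. The water libraries were at 6.27 to 6.82 for the dawn genes and 4.14 to 4.71 for the evening genes, and the ethanol libraries at 5.36 to 5.50 and 3.27 to 3.55, so that water was higher in both means. The part of the hour of harvest in the shifts from day to day, and between the arms on the same day, was not tested.

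**Figure D4:**
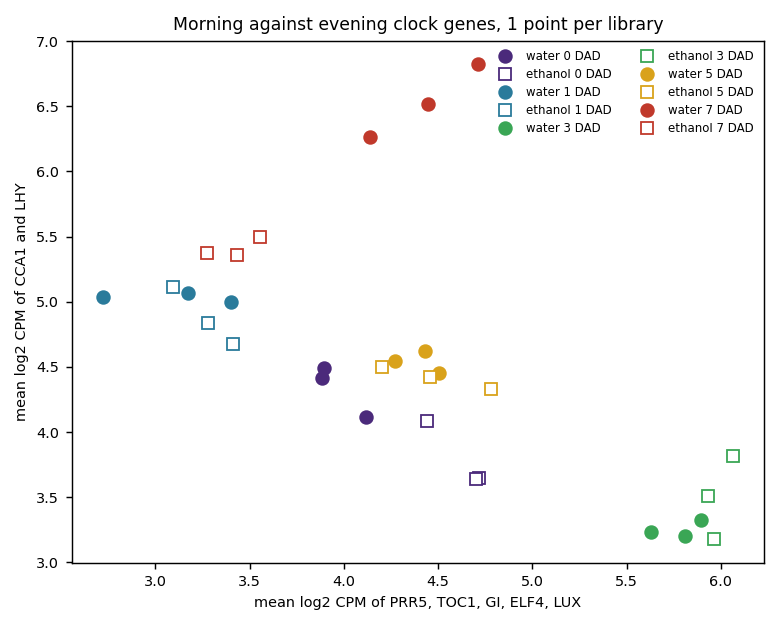
Mean log2 CPM of CCA1 and LHY against the mean log2 CPM of PRR5, TOC1, GI, ELF4 and LUX, 1 point per library, filled for water and open for ethanol. From 0 to 5 DAD the libraries lie along a falling band, with 1 DAD at the upper left and 3 DAD at the lower right. The water 7 DAD libraries stand above it, at dawn means of 6.27 to 6.82. The ethanol 7 DAD libraries, at dawn means of 5.36 to 5.50, also lie higher than every 1 DAD library (4.68 to 5.12). Their evening means were 3.27 to 3.55, against 2.72 to 3.41 at 1 DAD.

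The members were compared with each other across the 10 group means of log2 CPM, as a description, since these means share libraries, scaling and the 7 DAD groups. The 45 pairs had Pearson's r from 0.391 to 0.968 with a median of 0.78. Without the 2 groups of 7 DAD the range was -0.508 to 0.962 and the median 0.521, with 6 pairs negative. LHY with LNK2 (0.968, and 0.952 without 7 DAD) and CCA1 with RVE8 (0.964 and 0.962) were the closest pairs in both sets.

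The 5 genes outside the members whose group means followed the mean of CCA1 and LHY most closely, of 17582 with a mean of at least 10 counts, were AO (r = 0.984), an enzyme of NAD biosynthesis, AT3G60080 (0.974), the catalase gene CAT2 (0.967), AT3G12320, which is LNK3 (0.965), and the nucleobase transporter gene NCS1 (0.964). The 5 most opposite were the cytochrome P450 gene CYP81K2 (-0.987), MAP1C (-0.975), AIF1 (-0.974), AT3G05220 (-0.969) and PBL1 (-0.968). CAT2, for example, was at 498 CPM in water 0 DAD, 375 CPM in water 3 DAD and 1179 CPM in water 7 DAD, and LNK3 at 34.2, 28.2 and 208 CPM.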

How the data were processed

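RNA-seq counts and a normalised table were deposited for the 30 shoot libraries. Libraries were made by the authors with Lasy-Seq, a stranded method, and read 1 was trimmed (Trimmomatic), mapped to TAIR10 (HISAT2) and turned into a count per gene, introns included (featureCounts, primary alignments), as their methods state. A read could count for more than 1 gene. No member overlapped another gene on its strand in RefSeq's TAIR10.1. The signal in the normalised table that the authors deposited equals the count divided by the DESeq2 size factor and was not tested.

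Genes were filtered with filterByExpr (19249 kept, 8168 removed, 99.95% of counts kept) and scaled by TMM (factors 0.915 to 1.16) in edgeR 4.0.16 under R 4.3.3. All 30 libraries entered a quasi-likelihood model with a mean for each of the 10 groups (20 residual degrees of freedom), and p-values were adjusted by Benjamini-Hochberg over 19249 genes. The SE is the log2 fold change over the square root of F. Log2 CPM used a prior count of 2. All members are named; of the other clock genes 6 were to be named, and genes of like pattern are the 5 highest and 5 lowest in r. Members and lists were chosen with earlier results of these data known. DESeq2 1.42.0, DESeq2 size factors in edgeR, library totals, no filter, the compared groups alone, a replicate block and leaving out each library were alternatives. The fit was tested on simulated data. The second RNA-seq experiment and the microarrays of the study were not analysed here.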

Additional observations from a re-analysis of the deposited data

Results flagged for a closer look

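The change of a member during the drought differed between the ethanol and the water arm, by a test of the difference itself in the edgeR quasi-likelihood model, in 15 cases. Of all 19249 genes, 50.8% were called in the difference from 0 to 7 DAD, 23.2% of them all as lower. In the difference from 5 to 7 DAD 47.1% were called and 21.3% were called lower. A member could count in both differences, which share the 7 DAD libraries and are not independent. Values are differences of log2 fold changes, ethanol minus water. For the change from 0 to 7 DAD they were -0.77 for LHY (SE 0.349, adjusted p = 0.0727), -1.28 for RVE1, -4.78 for RVE2, -0.64 for RVE4, -1.55 for RVE6, -1.47 for RVE8 and -0.59 for LNK2 (SE 0.206, adjusted p = 0.0214). The LHY difference was not called without water 0 DAD replicate 3 (-0.65), water 7 DAD replicate 2 (-0.48), ethanol 0 DAD replicate 1 (-0.73) or replicate 2 (-0.65), or ethanol 7 DAD replicate 1 (-0.69) or replicate 2 (-0.61), and that of LNK2 was not called without ethanol 0 DAD replicate 3 (-0.43). With library totals neither was called (-0.56, adjusted p = 0.210 for LHY and -0.38, adjusted p = 0.147 for LNK2).

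For the change from 5 to 7 DAD they were -0.77 for CCA1, -1.22 for LHY, -4.36 for RVE2, -0.93 for RVE4, -1.29 for RVE6, -2.03 for RVE8, -0.40 for LNK1 and -0.59 for LNK2. The CCA1 difference was not called without ethanol 5 DAD replicate 1 (-0.59) or with library totals (-0.58, adjusted p = 0.102), and LNK2 was not called with library totals (-0.38, adjusted p = 0.146). The LNK1 difference (SE 0.180, adjusted p = 0.0793) was not called in 8 of 12 fits with a library left out, where it ranged from -0.49 to -0.28, nor with library totals (-0.20, adjusted p = 0.437), without the filter (-0.37) or in the compared groups alone (-0.38). The RVE2 difference ran from -5.21 without ethanol 7 DAD replicate 3 to -3.65 without ethanol 5 DAD replicate 3. RVE1 (-0.58, SE 0.471, adjusted p = 0.349) and PRR9 (0.55, SE 0.654, adjusted p = 0.535) were not called. RVE2, RVE4, RVE6 and RVE8 were called in both differences in every fit that left out a library.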

How the results depend on the processing

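The 88 called member values kept their sign in all 1146 alternatives run on them and their call in 1070. With library totals, which moved the median log2 fold change of all genes from 0.05 to 0.26 in ethanol against water at 7 DAD, 5 members were called in the difference of the 5 to 7 DAD changes (8 with TMM), 5 in the ethanol step from 5 to 7 DAD (3 with TMM, 5 in DESeq2) and 0 at 0 DAD (1 with TMM, 0 in the compared groups alone). Among values not called, RVE2 in ethanol reversed when ethanol 7 DAD replicate 3 was left out, and over the libraries left out in turn it ran from -0.59 to 0.60 for 0 to 7 DAD and from -0.47 to 1.12 for 5 to 7 DAD. Leaving out 1 library in turn gave 8 to 9 members called in ethanol against water at 7 DAD, 0 to 1 at 0 DAD and 0 at 1, 3 and 5 DAD. Against water 0 DAD it gave 3 to 6 at 1 DAD, 4 to 6 at 3 DAD, 4 to 5 at 5 DAD and 10 at 7 DAD, and 9 for 7 against 5 DAD. In the ethanol arm it gave 5 to 7 at 1 DAD, 2 to 5 at 3 DAD, 3 to 5 at 5 DAD and 9 at 7 DAD, and 3 for 7 against 5 DAD. The differences between arms gave 6 to 8 in both forms. In ethanol, 2 were called at 3 DAD when replicate 1 of that day was left out, and 3 at 5 DAD when replicate 1 of 0 DAD was left out. The cause was not tested.

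Same-numbered libraries deviated together with r between -0.11 and 0.21, and in no comparison did all 3 pairs exceed 0.1. The main fit did not pair libraries by number, although low values of r cannot exclude a pairing. With the replicate number as a block, the count of members was 9 in ethanol against water at 7 DAD, 1 at 0 DAD, 10 in the water arm at 7 DAD and 7 in the difference of the changes from 0 to 7 DAD, as without it. Over all genes, ethanol against water called 330 genes at 0 DAD but 592 in DESeq2, 77 in the compared groups alone and 67 to 335 with a library left out, 191 at 3 DAD but 43 to 311 with a library left out, and 0 at 5 DAD but 11 in DESeq2. The ethanol step from 5 to 7 DAD called 1636 but 790 in the compared groups alone and 797 to 2174 with a library left out, and water at 1 DAD called 2480 but 1374 to 2485. With library totals the share of calls that were higher moved from 52.8 to 63.0% in ethanol against water at 7 DAD, from 49.2 to 64.8% in water and 50.6 to 65.7% in ethanol at 5 DAD, from 53.0 to 70.5% in ethanol at 7 DAD, from 62.8 to 77.0% in its last step, and from 54.8 to 65.6% in the difference of the last steps.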
